A study of Mus musculus with 8 samples.

Results

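The sodium pump genes described here are *Atp1b1*, *Atp1b2*, *Atp1b3* and *Fxyd1*. Their members are the H3K27Ac peaks whose centre lies nearest to a curated RefSeq transcription start of 1 of these 4 genes, which gave 12 of 45987 peaks. *Atp1b3* had 6 of them, *Atp1b1* 3, *Atp1b2* 2 and *Fxyd1* 1. H3K27Ac, acetylation of lysine 27 of histone H3, marks active promoters and enhancers. It was measured by ChIP-Seq in ventricles of mice at postnatal day 7. The Control group had 2 hearts with floxed *Arid1a* alleles (*Arid1a* f/f) and no Cre, and the *Arid1a* cKO group had 2 hearts with the same floxed alleles and *αMHC*-Cre, whose promoter is active in cardiomyocytes. Each heart also had an input library, so 4 of the 8 libraries carry the mark. The deletion is directed to cardiomyocytes while whole ventricles were profiled, so fewer cells of a type and less acetylation per cell cannot be told apart.

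The sodium pump, or Na,K-ATPase, moves sodium out of the cell and potassium in at the cost of ATP. It pairs a catalytic alpha subunit with a glycosylated beta subunit, which brings the enzyme to the plasma membrane, and often with a small FXYD protein that tunes its affinity for ions. In cardiomyocytes the sodium gradient it keeps drives calcium export through the sodium-calcium exchanger, and the pump is the target of cardiac glycosides.

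Sequences are shown for 4 promoter windows that lie inside member peaks, because the peak over a start carries most of the reads of its gene, and for the *Atp1b1* peaks with a large difference. RefSeq promoters (GRCm38.p6) were matched for 3 of the 4 genes, for *Fxyd1* at 1 of its 2 curated starts, and the 250 bases before a start are printed, 5′ to 3′ on the minus strand, on which all of these genes lie. Capitals mark GGGCGG (the GC box) and ATTGG (the CCAAT box, read in reverse), searched on both strands together with AAGGTCA (the core of the ESRR site), CATTCC (the TEAD site), AGATAA (the GATA site) and the MEF2 motif.
*Atp1b1*, chr1:164458356-164458605: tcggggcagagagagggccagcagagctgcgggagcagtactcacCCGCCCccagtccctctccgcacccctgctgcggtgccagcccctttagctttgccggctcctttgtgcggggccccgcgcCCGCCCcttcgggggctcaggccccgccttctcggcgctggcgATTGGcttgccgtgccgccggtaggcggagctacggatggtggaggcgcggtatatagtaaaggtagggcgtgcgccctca
*Atp1b3*, chr9:96364432-96364681: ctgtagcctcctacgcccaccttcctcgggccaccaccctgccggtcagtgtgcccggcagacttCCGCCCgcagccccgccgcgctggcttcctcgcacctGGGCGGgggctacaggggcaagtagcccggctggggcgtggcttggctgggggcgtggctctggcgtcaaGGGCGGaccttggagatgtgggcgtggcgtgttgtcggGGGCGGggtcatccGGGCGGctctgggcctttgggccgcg
*Atp1b3*, the other start, chr9:96363716-96363965: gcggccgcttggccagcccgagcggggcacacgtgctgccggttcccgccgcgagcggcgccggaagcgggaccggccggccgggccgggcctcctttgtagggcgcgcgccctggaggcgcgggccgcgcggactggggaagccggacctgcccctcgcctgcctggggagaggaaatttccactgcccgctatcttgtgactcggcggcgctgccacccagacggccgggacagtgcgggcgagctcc
*Fxyd1*, chr7:31054854-31055103: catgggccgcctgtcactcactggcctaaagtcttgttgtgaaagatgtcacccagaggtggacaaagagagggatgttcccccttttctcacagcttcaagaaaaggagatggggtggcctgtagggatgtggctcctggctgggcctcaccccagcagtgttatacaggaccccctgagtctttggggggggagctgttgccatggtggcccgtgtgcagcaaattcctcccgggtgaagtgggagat
The *Atp1b1* promoter held 2 GC boxes and 1 CCAAT box, and the outer of both *Atp1b3* promoters held 5 GC boxes. Of the 250 bases printed for *Atp1b1*, 83 lie in an exon of the noncoding gene *Gm32391*. They include the GC box 205 to 200 bases before the *Atp1b1* start. In the inner *Atp1b3* promoter, printed as the other start, and in the *Fxyd1* window shown, none of the 6 motifs was found. That *Fxyd1* window lies before the inner of its 2 starts, so inside the annotated gene. The promoter of the outer *Fxyd1* start is not shown. Over 32851 promoters, 32.7% held a GC box and 33.8% a CCAAT box in the same 250 bases. For the other motifs the shares were 0.508% for MEF2, 4.08% for ESRR, 12.6% for TEAD and 9.99% for GATA.

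The central 300 bases of the *Atp1b1* peak with the lowest difference among members, and of a peak just upstream of *Atp1b1*, are given on the same strand. The upstream peak is not a member and was chosen after its values were seen.
*Atp1b1* distal peak, chr1:164392131-164392430: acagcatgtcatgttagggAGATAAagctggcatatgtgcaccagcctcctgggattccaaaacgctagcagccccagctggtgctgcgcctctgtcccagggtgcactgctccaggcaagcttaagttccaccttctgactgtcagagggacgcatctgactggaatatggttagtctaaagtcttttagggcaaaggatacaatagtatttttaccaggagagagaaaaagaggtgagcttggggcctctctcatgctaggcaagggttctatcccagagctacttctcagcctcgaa
*Atp1b1* upstream peak, chr1:164461510-164461809: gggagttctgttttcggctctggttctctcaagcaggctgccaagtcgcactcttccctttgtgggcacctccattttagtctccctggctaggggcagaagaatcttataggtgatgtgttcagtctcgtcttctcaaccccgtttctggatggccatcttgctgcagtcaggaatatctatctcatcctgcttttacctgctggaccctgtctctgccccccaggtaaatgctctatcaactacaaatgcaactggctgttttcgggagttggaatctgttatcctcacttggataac
The capitals mark AGATAA, which occurs in 13.4% of the central 300 bases of the 45980 peaks placed on chromosomes. None of the 6 motifs was found in the upstream window. Over its whole length the upstream peak held 2 matches to AAGGTCA, 2 to CATTCC, 1 to AGATAA, 1 to GGGCGG and 2 to ATTGG, and no MEF2 match. A match describes letters and does not show binding.

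*Arid1a*, the targeted gene, is given first. It encodes a subunit of the SWI/SNF chromatin remodelling complex. The peak over its start had a log2 level of 10.65 in Control and 10.70 in *Arid1a* cKO, and a weaker peak in an intron had 4.12 and 4.10. The position of the deleted part was not analysed here, and acetylation outside it does not check the labels.

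All levels are the authors' group means, on the log2 scale of mean normalized reads per peak. These group means carry no replicate error and no test was made on them, so a peak was called lower or higher when its groups differed at least 2-fold, a log2 difference of 1. By this limit 1 of the 12 member peaks was lower in *Arid1a* cKO, which is 8.33%, against 4878 of all 45987 peaks, or 10.6%. None was higher, against 2103 of all peaks, or 4.57%. These counts lie near the background and are no result about the set. The median difference over the members was -0.17, and over all peaks 0.01. With all peaks within 50 kb of a member start it was -0.105. A difference below 0 was found for 11 of the 12 members, or 91.7%, and for 48.3% of all peaks, and 10 of those 11 were between -0.35 and -0.02.

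**Figure D1:**
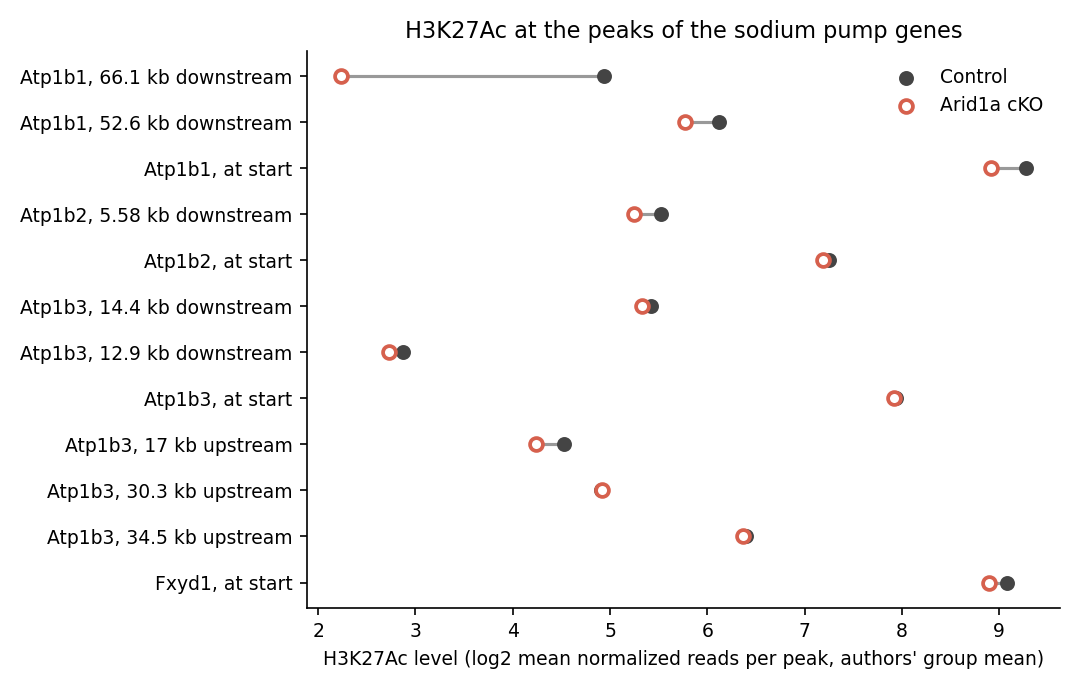
H3K27Ac level of each of the 12 member peaks, as the authors' log2 mean of normalized reads in Control (filled points) and *Arid1a* cKO (open points), with the position of the peak relative to the gene's start. The distal *Atp1b1* peak went from 4.94 to 2.24, while the other pairs of points lie within 0.35 of each other.

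*Atp1b1* encodes the beta 1 subunit, the main beta subunit of the heart. Its widest peak, chr1:164449621-164460001, covered the start and reached 8.73 kb into the gene. It had 617 normalized reads in Control and 484 in *Arid1a* cKO, or log2 levels of 9.27 and 8.92 and a difference of -0.35. At 10.4 kb it was wider than the 1.78 kb median of all peaks and stood at percentile 98.6 of their widths. A peak 52.6 kb downstream of the start, chr1:164404917-164406502, had the same difference of -0.35, from 6.12 to 5.77. It lies past the end of *Atp1b1*, with its centre in an intron of *Nme7*.

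The distal *Atp1b1* peak, chr1:164391715-164392845, was the member called lower. Its centre lies 66.1 kb downstream of the *Atp1b1* start, past the end of the gene and in an intron of *Nme7*. It had 30.7 normalized reads in Control and 4.72 in *Arid1a* cKO, 15.4% of the Control level, and a log2 difference of -2.70. Of all peaks, 2.02% had a difference as low or lower. Among 9182 peaks within 0.5 log2 of its level over all samples, 1442, or 15.7%, were at least 2-fold lower, and 325, or 3.54%, were as low as this peak. At more than 10 kb from a start, 3702 of 26804 peaks, or 13.8%, were lower. The call was lost with predicted transcripts in the annotation, where the nearest start is that of *Gm39690*. It was also lost with a minimum of 20 normalized reads over all samples, where the peak had 17.6. That mean includes the low *Arid1a* cKO level, so this filter depends on the difference itself. With 20 reads in either group, a filter chosen after seeing the data, the peak passed through its Control level alone. A kept call was therefore fixed in advance and adds no support.

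Just upstream of *Atp1b1*, 420 bases beyond its widest peak, lies the peak chr1:164460422-164462897. It had log2 levels of 7.07 in Control and 5.85 in *Arid1a* cKO, a difference of -1.22. The rule gave it to *Gm32391*, a noncoding gene on the other strand, whose start was 168 bp nearer than that of *Atp1b1*. The member peak over the *Atp1b1* start covers the *Gm32391* start as well, so its acetylation cannot be divided between these genes. Within 50 kb of the *Atp1b1* start 1 of 2 peaks was at least 2-fold lower, and within 100 kb 3 of 6, against 10.6% of all peaks. Of these 3, a peak 94.4 kb upstream, nearest to *Gm26685*, lay at the limit itself, with 4.92 in Control and 3.92 in *Arid1a* cKO.

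**Figure D2:**
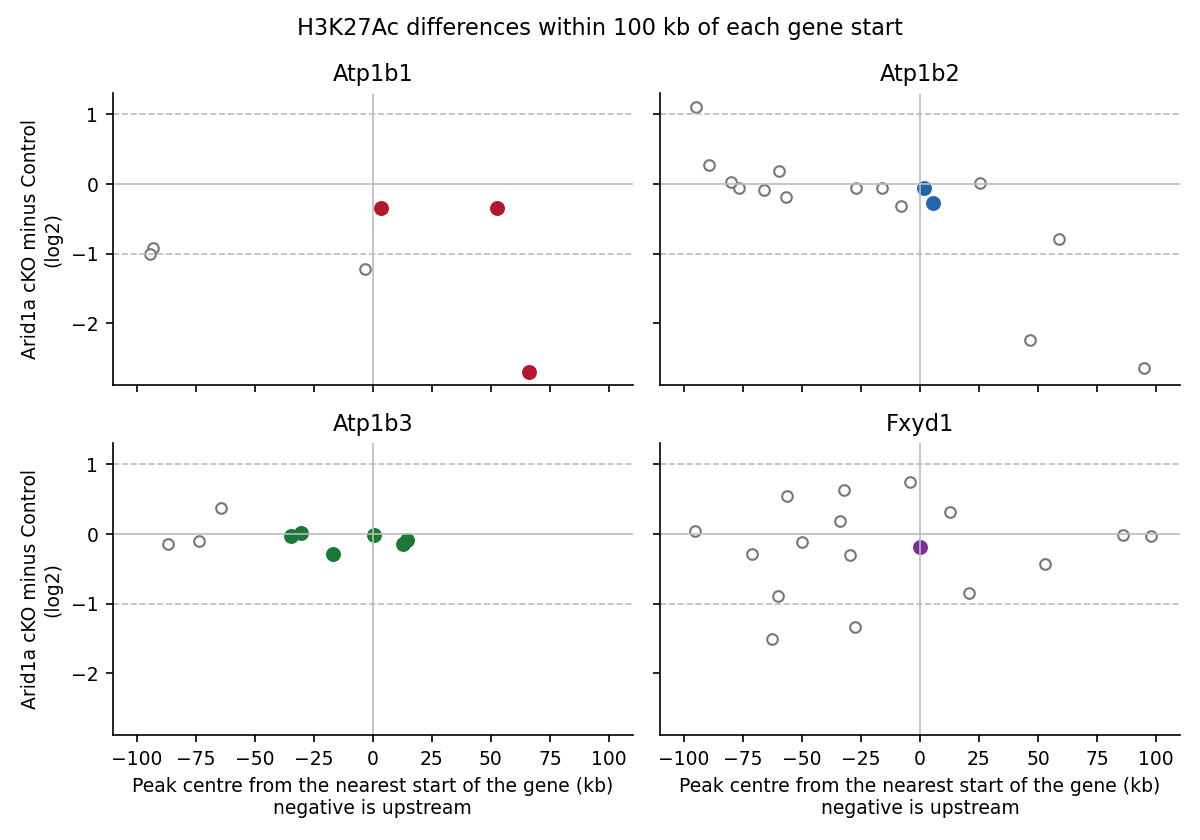
Log2 difference, *Arid1a* cKO minus Control, of each peak within 100 kb of the nearest start of each gene, against the distance of its centre in kb. Filled points are members, open points are peaks nearest to other genes and dashed lines mark 2-fold. Around *Atp1b3* all 9 peaks lie inside the 2-fold lines, and around *Atp1b1* 3 of 6 lie at or under the lower line.

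*Atp1b2* encodes the beta 2 subunit, first described in glia as an adhesion molecule. The peak over its start, chr11:69602001-69606643, had 7.25 in Control and 7.19 in *Arid1a* cKO on the log2 scale, a difference of -0.06. The other, chr11:69599306-69601446, was centred on an exon 5.58 kb downstream of the start and had 5.52 and 5.25, a difference of -0.27. Both stayed inside the 2-fold limit. Within 50 kb of the start 1 of 7 peaks was at least 2-fold lower, and within 100 kb 2 of 16 were lower and 1 was higher. The shares over all peaks were 10.6% lower and 4.57% higher. The lower peak within 50 kb covered the start of *Efnb3*, an ephrin ligand, with 7.97 in Control and 5.73 in *Arid1a* cKO.

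*Atp1b3* encodes the beta 3 subunit, found in many tissues. Its curated transcripts have 2 starts, both inside the peak chr9:96362800-96365418. That peak had 246 normalized reads in Control and 242 in *Arid1a* cKO, a log2 difference of -0.02. Inside the gene, peaks at 12.9 and 14.4 kb from the start differed by -0.14 and -0.09. Upstream of it, the nearest peak, 16992 bp away, differed by -0.29, and those at 30.3 and 34.5 kb by 0.01 and -0.03. The *Atp1b3* median was -0.06, and none of its 6 peaks passed the limit, nor did any of the 9 peaks within 100 kb. The peak at 12.9 kb was the weakest member in Control, with 7.31 reads, and had 6.63 in *Arid1a* cKO, where the distal *Atp1b1* peak was weaker.

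*Fxyd1* encodes phospholemman, a substrate of protein kinases A and C in heart muscle that inhibits the pump when it is not phosphorylated. Its peak, chr7:31053475-31057506, covered both curated starts. It had 541 normalized reads in Control and 474 in *Arid1a* cKO, or 9.08 and 8.89 on the log2 scale, a difference of -0.19. *Fxyd1* lies in a cluster of FXYD genes. Within 50 kb 1 of 9 peaks was lower, nearest to *Fxyd3*, and within 100 kb 2 of 17, and none was higher. Over all peaks 10.6% were lower and 4.57% higher.

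Of the members, 2 were promoter peaks by their centre, 6 were intronic, 1 was exonic and 3 were intergenic. Among all promoter peaks 81 of 5189, or 1.56%, were at least 2-fold lower, and neither promoter member was. Per length, the summed Control level was 134 reads per kb for *Fxyd1*, 54.8 for *Atp1b1*, 42.0 for *Atp1b3* and 29.2 for *Atp1b2*. The order was the same in *Arid1a* cKO, with 118, 41.5, 40.8 and 27.1. The median over 15761 genes with a peak was 40.9 in Control. The group means give no spread between hearts, so neighbours in this order were not compared. Summed reads differed by -0.40 on the log2 scale for *Atp1b1*, -0.19 for *Fxyd1*, -0.11 for *Atp1b2* and -0.04 for *Atp1b3*, and the median over genes was 0.00.

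**Figure D3:**
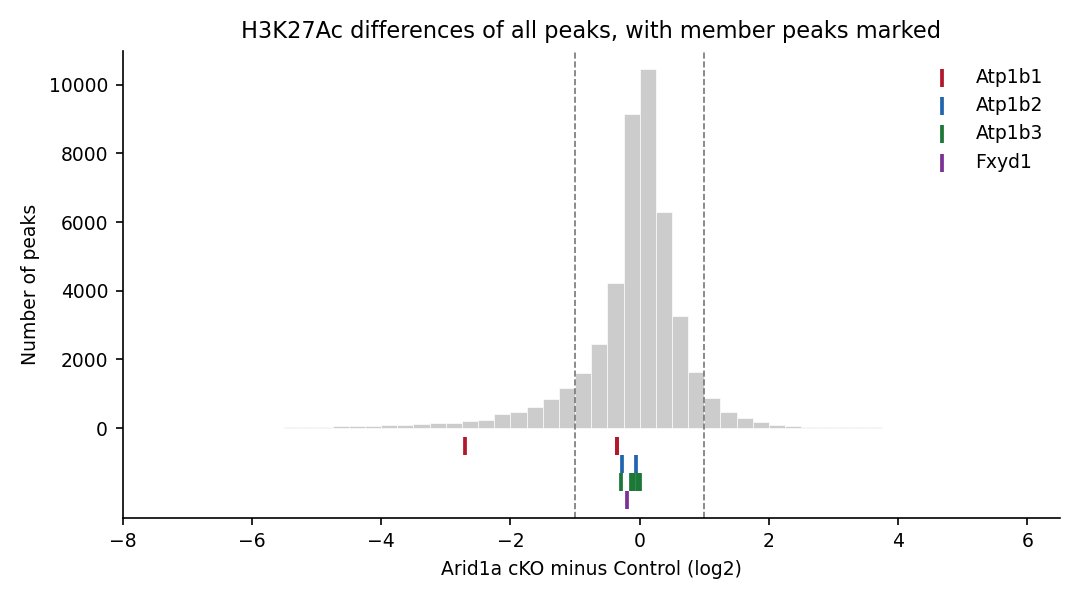
Number of peaks by log2 difference, *Arid1a* cKO minus Control, for all 45987 peaks (grey bars), with the member peaks as coloured ticks under the axis and dashed lines at 2-fold. All but 1 of the 12 ticks stand between -0.35 and 0.01, and that of the distal *Atp1b1* peak stands at -2.70.

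Motif matches over the whole length of the member peaks were counted as a description. AAGGTCA had 14 matches in 5 member peaks, 0.409 per kb, against 0.230 per kb over all peaks. The widest *Atp1b1* peak held 8 of these 14. GGGCGG had 0.964 matches per kb in the members and 0.644 over all peaks. CATTCC had 0.292 and 0.612, AGATAA 0.351 and 0.538, and ATTGG 0.964 and 1.29. The MEF2 motif had 2 matches, in 2 *Atp1b1* peaks, 0.0584 per kb against 0.0334 over all peaks. The distal peak held no MEF2, AAGGTCA or GGGCGG match, 1 of CATTCC, 2 of AGATAA and 2 of ATTGG.

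Of the 7 other beta and FXYD genes, 6 had a peak, and 3 of their 13 peaks were lower and 1 was higher. For this and the following lists, the shares over all peaks were 10.6% lower and 4.57% higher. *Fxyd3* had the most peaks, 4, and its lower peak fell from 5.65 to 4.32. The only *Fxyd4* peak fell from 5.29 to 4.13, and an *Fxyd6* peak from 4.20 to 2.92. *Atp1b4*, which encodes a beta-like protein of muscle, had a peak that rose from 3.81 to 4.95. The median of the list was -0.05.

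Membrane partners anchor or bind the pump. Of their 51 peaks 3 were lower and 3 were higher, with a median of -0.05. *Ank2*, the ankyrin B gene, had differences of -2.47, -1.22 and 1.92. *Cav3*, which encodes the caveolin of muscle, had -1.40 and 1.03, the latter from 3.94 reads in Control. *Ank3* had a peak with 1.19. *Sptbn1*, the beta spectrin gene with the most peaks of the list, 16, ranged from -0.57 to 0.27.

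Transporters that use the sodium gradient had 7 lower and no higher peaks of 49, with a median of -0.09. *Slc8a1*, the cardiac sodium-calcium exchanger, had 29 peaks, of which 3 were lower. In the lowest of these the *Arid1a* cKO level lay at the bottom of the table, so its difference is given with the level raised to 3 reads, as -2.05 or lower. The others had -1.21 and -1.28. *Slc4a4*, a sodium bicarbonate cotransporter gene, had 3 lower peaks of 8, with -1.25, -1.30 and -1.75. *Slc12a2*, the sodium-potassium-chloride cotransporter gene, had a peak with -1.23.

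Other cation pumps had 1 lower and 2 higher peaks of 22, with a median of 0.03. *Atp2a2*, the calcium pump of the sarcoplasmic reticulum, had the most peaks, 9, with a summed difference of -0.07. Its 1 higher peak, with 1.39, lay 51.1 kb upstream and had 14.6 reads in Control. *Atp2b4*, a plasma membrane calcium pump, had a peak with 1.42, from 3.89 reads in Control. A distant *Atp2b1* peak had -1.91 or lower with its *Arid1a* cKO level raised to 3 reads.

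Pump regulators had 8 lower and 3 higher peaks of 55, with a median of -0.05. *Nedd4l*, a ubiquitin ligase that acts on sodium channels, had 21 peaks, 5 lower and 2 higher, between -3.10 and 1.41. *Prkce*, the protein kinase C epsilon gene, had 3 lower peaks of 4, with -1.23, -1.24 and -3.50. *Sgk1*, a kinase induced by aldosterone, had a peak in an exon with 1.27. Over all 5 lists 22 of 190 peaks, or 11.6%, were lower and 9, or 4.74%, were higher, near the shares of all peaks.

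**Figure D4:**
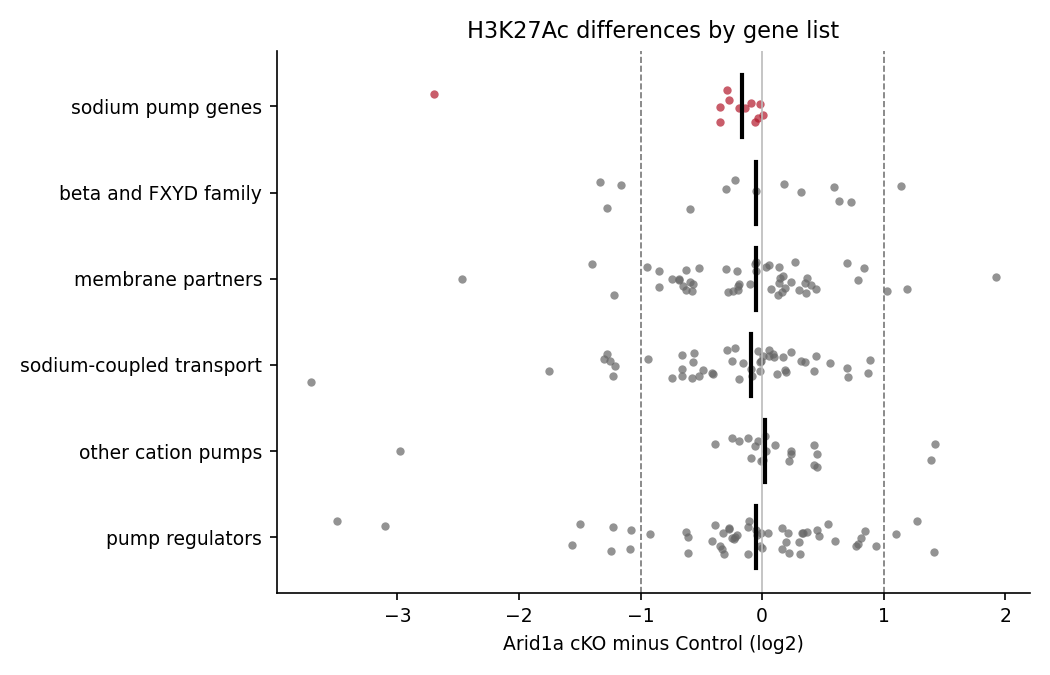
Log2 difference, *Arid1a* cKO minus Control, of each peak (points) of the sodium pump genes and of 5 lists of related genes, with list medians as black bars and dashed lines at 2-fold. List medians lie between -0.17 and 0.03, and points past 2-fold occur in every list.

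By distance in log2 summed reads per kb in both groups, over 2 group means and among protein-coding genes with as many peaks, *Rph3al* and *Glrx* were closest to *Atp1b1*. *Pgrmc1* and *Iftap* were closest to *Atp1b2*, *Asah2* and *Phactr4* to *Atp1b3*, and *Eif2a* and *Rab1b* to *Fxyd1*. Their summed differences were -0.44 and -0.46, -0.12 and -0.08, -0.02 and -0.04, and -0.17 and -0.17 on the log2 scale, in that order. The choice by both group levels fixes these differences near those of the members, so nothing is read from them.

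Among neighbouring protein-coding genes, *Nme7* on the downstream side of *Atp1b1* and *Fxyd7* beside *Fxyd1* had no peak by the rule. *Dpt*, a gene of the extracellular matrix 338 kb upstream of *Atp1b1*, had a summed difference of 0.00 over 7 peaks, with a median of 0.39, a range from -1.72 to 0.74 and 1 lower peak. *Shbg* beside *Atp1b2* had -0.32 at 1 weak peak. Beside *Atp1b3*, *Tfdp2* had a summed difference of -0.15 and a median of 0.06, and *Rnf7* had -0.05 and 0.02. *Lgi4*, on the other side of *Fxyd1*, had 0.75 at a peak of 9.32 reads in Control.

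Cell type markers were read from the peaks of each gene. All 7 cardiomyocyte genes had peaks, 25 in all, with 18957 summed reads in Control and 17491 in *Arid1a* cKO, a median difference of -0.25 and *Myh6* the highest per kb. Of these peaks 1 was lower, of *Actn2*, and 2 were higher, of *Myl2* with 2.59 and *Gata4* with 1.35. The genes went both ways in summed reads. *Tnnt2* had -0.46, *Actn2* -0.35, *Tbx20* -0.29, *Myl2* -0.11 and *Gata4* -0.05. *Myh6* had 0.13 and *Tnni3* 0.28, the latter from 1 peak of 44.0 reads in Control. All 5 fibroblast genes had peaks, with 2573 and 3569 summed reads, a median of 0.35 and *Col1a2* the highest. Of their 29 peaks 4 were higher, all of *Tcf21*, and none was lower, against 4.57% and 10.6% of all peaks. The 4 endothelial genes, led by *Cdh5*, had 9748 and 9907 summed reads, with 2 of 35 peaks lower and 1 higher. Macrophage and leukocyte genes, led by *Ptprc*, had 105 and 154 at 4 peaks, and *Adgre1* had none. Smooth muscle and pericyte genes, led by *Pdgfrb*, had 1207 and 1325. Among Schwann and glial genes *S100b* had a peak, with 251 and 187 reads, and *Sox10* and *Gfap* had none. Among erythroid genes *Alas2* had a peak, with 5.98 and 13.7 reads, and *Hbb-bs* had none. The part of cell types in the values of the member peaks was not tested.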

How the data were processed

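H3K27Ac ChIP-Seq of P7 ventricles was analysed in 2 Control and 2 *Arid1a* cKO hearts. Alignment by the authors used BWA 0.7.17-r1188 and the mm10 genome. Their peaks came from HOMER with merged inputs as background, had to occur in 2 or more samples, and, per the submitters' processing notes, were quantified by the authors in DiffBind 2.12.0 with DESeq2 1.24.0. The deposited table gives the log2 mean normalized read count of each peak, over all samples and per group, and peak width. Its fold change, p-value and FDR columns hold the authors' comparison and were not used. Library scaling, treatment of inputs in the quantification and depth per sample are not given in the sources used here.

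The difference is the *Arid1a* cKO value minus the Control value. Peaks were assigned by centre to the nearest start of 45756 curated RefSeq transcripts (GRCm38.p6), and 7 unplaced peaks were left out of gene steps. A centre from 1000 bp before to 100 bp after a start made a promoter peak. Group means under 3 reads were treated as a floor for bounds. Genes named are those of 5 lists with a peak past 2-fold, the gene with most peaks per list, neighbours and the genes most alike. Members and lists were chosen with earlier results of these data known. Alpha subunit genes were not analysed here, and 1 neighbour of *Atp1b2* and 2 marker genes are not reported here. Alternatives covered assignment, annotation, centring, low values and limits. Steps were tested on simulated data. Python 3.11.15, numpy 2.4.6, pandas 2.3.3, pysam 0.24.0 and matplotlib 3.10.9 were used.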

Additional observations from a re-analysis of the deposited data

How the results depend on the processing

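No paired analysis was possible because the deposited columns are group means, although the labels give both groups the replicate numbers 1 and 2. For the same reason no heart was left out, and the group means used here give no spread between hearts.

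The count of 1 lower member peak became 3 of 24 with all peaks within 50 kb of a member start. The share over all peaks was 10.6%. These 3 were nearest to *Gm32391*, *Efnb3* and *Fxyd3*. With predicted transcripts 7 member peaks were left and the count was 0. The distal *Atp1b1* peak, the *Atp1b1* peak at 52.6 kb and the *Atp1b3* peaks upstream of its start then belonged to other genes. With at least 20 normalized reads over all samples the count was also 0, because the distal *Atp1b1* peak is no longer a member. The mean over all samples, 17.6 reads, includes the low *Arid1a* cKO level, so this filter depends on the difference itself. Among peaks within 0.5 log2 of that mean, 15.7% were at least 2-fold lower, against 10.6% of all peaks. With at least 20 reads in either group, chosen after seeing the data, 11 peaks were kept, 1 was lower and the median was -0.190. The lower peak passed this limit through its Control level alone, so its call was bound to be kept. With peaks over a gene body or its 5 kb flanks the count was again 1, but 0 of the lower peaks was shared: it was the peak upstream of *Atp1b1*. Centring, the floor of 3 reads and limits of 1.5-fold and 3-fold left it at 1. The count of higher member peaks was 0 in each alternative. The median of -0.165 was -0.105 within 50 kb, -0.140 over gene bodies, -0.140 with predicted transcripts, -0.175 after centring and -0.140 with at least 20 reads over all samples. Without the distal *Atp1b1* peak, an alternative chosen after seeing the data, the median was -0.140. The log2 ratio of summed reads over all member peaks, which is not a median, was -0.220. Each of these values was negative, but the alternatives reuse many of the same peaks, so their common sign is no independent support.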
